A study of Mus musculus with 24 samples.

Results

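Car1, Car2, Car3, Car4 and Car13 are the genes of 5 carbonic anhydrases, taken by symbol as 5 of the 49585 gene rows of the deposited table, and their levels are described in single cells sorted as burst-forming units-erythroid (BFU-E), which give rise to red cells alone. All 24 cells were C57/Bl6J mouse cells taken from fetal liver at embryonic day 14.5, and the labels name no genetic change and no treatment. Per the labels' protocols, beads removed cells with the lineage antigens CD41, Ter119, CD11b, CD3e, Ly-6G and CD45R, with Sca-1 or with CD16/32, and cells stained for CD24, CD71 and CD117 were then sorted 1 to a well. RNA was read by Smart-seq2, a plate method that covers the length of polyadenylated transcripts and has no molecular identifiers. The cells make up 1 group with no second condition, the number of embryos is not given in the sources used here, and the cells therefore count as 1 sample: every spread below is a spread over cells, and no p-value is given.

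Carbonic anhydrases are zinc enzymes that catalyse the reversible hydration of carbon dioxide to bicarbonate and a proton. Car1 and Car2 encode soluble cytosolic enzymes that are abundant in red cells, where they serve carbon dioxide transport, and Car2 is the faster catalyst. Car3 is a cytosolic enzyme of low activity known from skeletal muscle, fat and liver, Car13 is a further cytosolic form, and Car4 is anchored to the outer face of the membrane.

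Car1, Car2, Car3 and Car13 lie within 259 kb of mouse chromosome 3 (GRCm38, coordinates from GENCODE M21), and Car4 lies elsewhere. In order along the chromosome these are Car13 (ENSMUSG00000027555, chr3:14641727-14663002, plus strand), Car1 (ENSMUSG00000027556, chr3:14766216-14808368, minus strand), Car3 (ENSMUSG00000027559, chr3:14863512-14872523, plus strand) and Car2 (ENSMUSG00000027562, chr3:14886273-14900770, plus strand). Car4 (ENSMUSG00000000805) is at chr11:84957786-84966044 on the plus strand. The cells' reads were counted per gene, so how far apart the related coding sequences are bears on every value below. Over their aligned coding bases Car1 and Car2 were identical at 62.8%, with 490 of 780 bases the same and a longest shared run of 15 bases. The other pairs among the 4 clustered genes were identical at 61.4% to 65.4%, and the longest run shared by any pair was 30 bases, between Car2 and Car13. The 60 coding bases below are the stretch where Car1 is most like Car2, shown to let a reader see how many bases separate the transcripts even there. Each window spans the end of exon 3 and the start of exon 4 of a transcript with 7 exons and encodes part of the active site, a zinc-binding histidine included. Capitals mark bases that differ from Car2.
Car2: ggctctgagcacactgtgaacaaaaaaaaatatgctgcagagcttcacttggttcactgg
Car1: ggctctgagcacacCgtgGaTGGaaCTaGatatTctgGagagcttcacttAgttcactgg
Car3: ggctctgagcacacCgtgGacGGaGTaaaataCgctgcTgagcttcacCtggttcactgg
Car13: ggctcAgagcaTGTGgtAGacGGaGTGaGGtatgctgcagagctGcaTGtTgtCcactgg
The Car2 window is coding bases 310 to 369 (chr3:14895099-14895552, plus strand, the intron included). The Car1 window is coding bases 313 to 372 (chr3:14770886-14776259, minus strand) and differs from Car2 at 11 bases. The Car3 window (chr3:14866880-14868366, plus strand) differs at 9 bases and the Car13 window (chr3:14650736-14654901, plus strand) at 19.

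Total counts ran from 876983 to 2155010 per cell, and between 4767 and 7349 genes had at least 5 counts, the level taken here as detected. No pair of cells was a repeat of the same library, the fewest gene rows that differed between any pair being 8516. Each cell's header ends in a letter and a digit, read here as its row and column on a plate. On that reading all cells came from 1 plate, 8 from each of 3 plate columns. Where a gene has no count, the true value may be as high as 3 counts, or 1.39 to 3.42 CPM (counts scaled to a common library total) according to the cell, a floor that covers counting error only.

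Car2 was present in every cell, Car1 in most, Car13 in a few, Car3 in 1, and Car4 in none. Car2 was detected in 24 of 24 cells, at 4.86 CPM in the lowest cell, 772 CPM at the median and 1695 CPM in the highest cell. Car1 was detected in 19 cells, at 0 CPM in the lowest, 71.8 CPM at the median and 5252 CPM in the highest. The means were 812 ± 475 CPM for Car2 and 558 ± 1139 CPM for Car1 (mean ± SD over 24 cells, as below). The SD was 58.5% of the mean for Car2 and 204% for Car1, so Car1 spread far more widely from cell to cell.

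Car1 was graded over the cells and was concentrated in a few of them. Cell 12 alone had 5252 CPM, and cells 18, 3 and 17 had 2194, 1248 and 1184 CPM. These were the 4 cells above 1000 CPM, and the 3 cells with the most reads held 65.3% of the 20946 Car1 counts, against 26.5% of the 30263 counts for Car2. The mean of Car1 without cell 12 was 354 ± 557 CPM. At the low end cells 2, 4, 19 and 20 had no Car1 count, 8 cells had a value above 0 and below 100 CPM, and 12 had 100 CPM or more. The 3 plate columns did not hold Car1 evenly: its median was 26.6 CPM in plate column 1, 71.8 CPM in column 2 and 630 CPM in column 3, where all 8 cells had it, although the ranges of 0 to 393, 0 to 1184 and 7.31 to 5252 CPM overlapped. Car2 had medians of 740, 1001 and 694 CPM in the same columns and so did not follow this order. The part of the plate column in the Car1 levels was not tested.

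**Figure D1:**
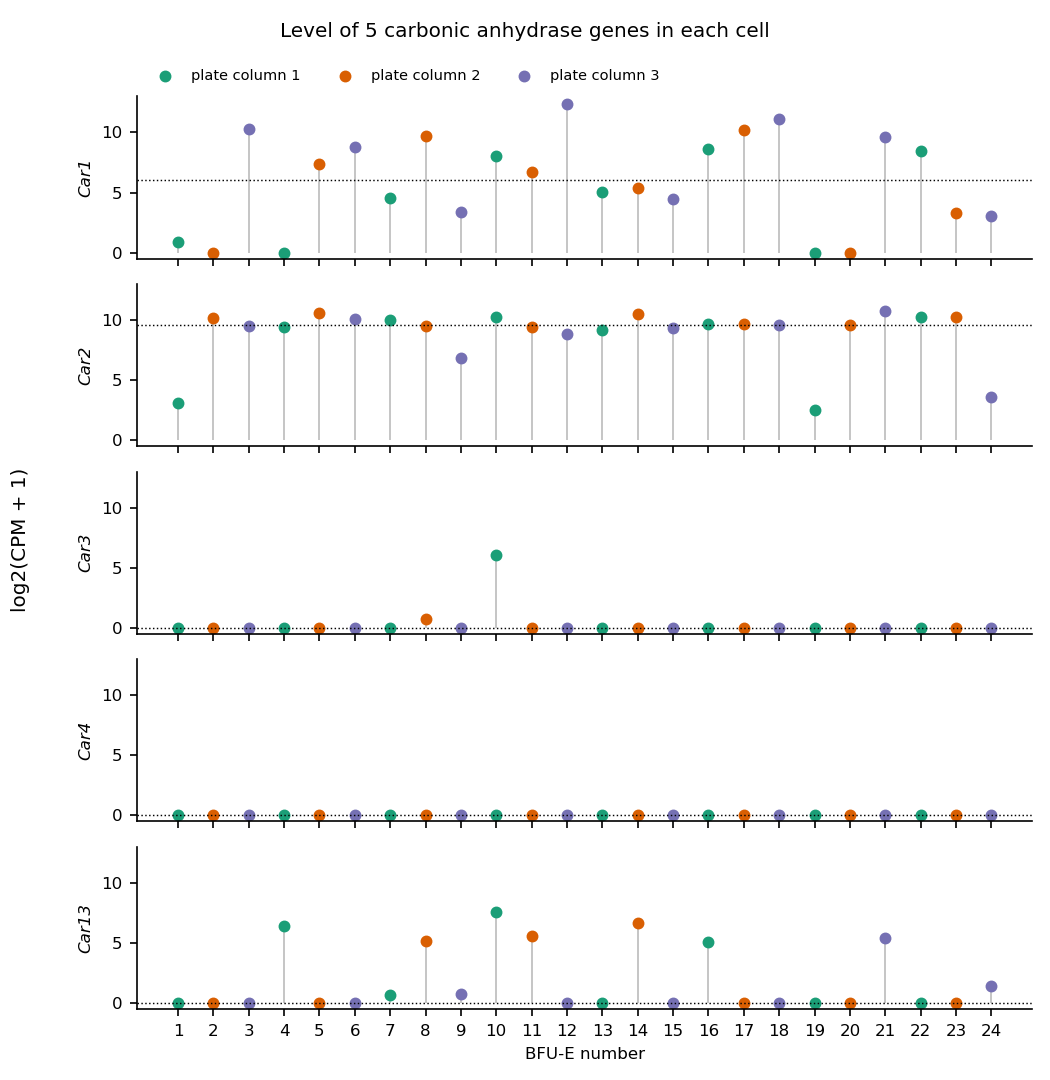
Level of Car1, Car2, Car3, Car4 and Car13 in each of 24 BFU-E (x axis, cell number) as log2(CPM + 1) (y axis); colour gives the plate column and the dotted line is the median over cells. Car2 is high in 20 cells, Car1 runs from 0 to 5252 CPM, Car13 stands above the baseline in a few cells, Car3 in cell 10, and Car4 is at 0 throughout.

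Per transcript length, the mean levels of Car1 and Car2 lay within the spread between cells, and their order depended on a single cell. In TPM, which divide counts by exon length before scaling and so allow genes to be compared, Car1 averaged 1148 ± 2302 and Car2 877 ± 514. Without cell 12 the means were 739 ± 1162 TPM for Car1 and 895 ± 518 TPM for Car2. Both differences are smaller than the spread between cells. Within a cell Car1 exceeded Car2 in 6 cells and Car2 exceeded Car1 in 18, and the ratio of Car1 to Car2 in TPM had a median of 0.250 and reached 22.7 in cell 12. Ranked by mean TPM among 16184 genes with a count, Car1 stood at 104 and Car2 at 148, both far above Car13 at 4584 and Car3 at 10523. Together with the 11 other carbonic anhydrase genes of the table, Car1 made up 55.6% and Car2 42.5% of the family's mean TPM, and Car13 1.24%. These ranks and shares use means that include cell 12. The median over cells was 151 TPM for Car1 and 828 TPM for Car2.

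Car13 was a minority transcript. It was detected in 7 cells, with 147 counts in cell 4, 55 in cell 8, 271 in cell 10, 63 in cell 11, 131 in cell 14, 65 in cell 16 and 70 in cell 21, while its median over all cells was 0 CPM. It averaged 22.2 ± 45.2 CPM with cell 10 and 15.04 ± 29.1 CPM without it. Of the 7 cells, 6 also had Car1 detected, the exception being cell 4 with no Car1 count. Another 13 cells had Car1 without Car13, so the presence of Car1 did not carry Car13 with it. Car13 levels were 215 TPM at most and averaged 25.6 ± 52.3 TPM, below both larger members.

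Car3 was detected only in cell 10, with 97 counts or 66.9 CPM, beside 1 count in cell 8 and 0 in 22 cells. Cell 10 was also the cell of highest Car13. The summed level of 12 hepatocyte marker genes was 1435 CPM in cell 10, with 8 of the 12 at 10 CPM or more, against 93.2 CPM in the next highest cell, a median of 18.9 CPM and a lowest value of 3.92 CPM. The part of those transcripts in the Car3 and Car13 values of this cell was not tested. Car4 had 0 counts in all 24 cells, so it was not detectable at this depth.

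Of the 11 other carbonic anhydrase genes, 4 were found in any cell and none was widespread. Car9, a membrane form that hypoxia induces, was detected in 5 cells, with 126 counts in cell 1, 86 in cell 16, 19 in cells 4 and 11 and 9 in cell 19, and averaged 7.72 ± 22.6 CPM. Car8, an acatalytic family member, was detected in cell 12 with 101 counts and in cell 8 with 61. Car7 had 16 counts and Car12 had 15 counts, both in cell 8. The mitochondrial forms Car5a and Car5b, the secreted Car6, and Car10, Car11, Car14 and Car15 had 0 counts in every cell.

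Most genes around the cluster had no count, as was so for most rows of the whole table. Within 500 kb of the cluster GENCODE M21 has 24 genes, 11 of them protein-coding. Of the 24, 10 had a count and 4 were detected in at least 12 cells, against 16184 and 5962 of all 49585 rows. The window was thus not more silent than the table. Besides Car1 and Car2, the genes detected in at least 12 cells were 1810022K09Rik, found in 24 cells at 203 ± 76.5 TPM, and Lrrcc1, a centrosomal protein, found in 14 cells at 14.9 ± 16.01 TPM. E2f5, a cell cycle transcription factor, was detected in 11 cells at 25.05 ± 33.5 TPM. Ralyl, Slc7a12, Gm9733 and Sirpb1a had 0 counts. Car1 and Car2 had the highest mean TPM in the window, with Car13 and Car3 lying beside them at 25.6 and 2.59 TPM. The pseudogene Gm16399, which overlaps Car1 on the same strand, had 4 counts in all.

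Car1 and Car2 were found together in 19 cells, Car2 alone in 5, and Car1 alone in none. Their levels followed each other weakly over the cells, with a Spearman rho of 0.27 and a Pearson r of 0.46 on log2(CPM + 1) over 24 cells. Pearson r was 0.57 without cell 12, the farthest from the median of Car1, and cell 2. Cells 2, 4, 19 and 20 were equally far from that median, with no Car1 count, and cell 2 was taken by its order alone. Leaving out another of them with cell 12 was not tried, so this value does not show how steady the relation is. All 24 cells were read as sharing a plate and differ in depth, and rho of the total count was 0.18 with Car1 and 0.19 with Car2. Within plate columns rho of Car1 with Car2 was 0.68, -0.12 and 0.45 over 8 cells each. Cells 1, 9, 19 and 24, the lowest in Car2, lie in columns 1 and 3, and the lowest Car2 in column 2 was 701 CPM. The value in column 2 is therefore not separate from the share of those cells in the relation. The relation rested on a handful of cells: leaving out the 5 cells with Klf1 under 10 CPM brought rho to -0.025 over 19 cells.

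**Figure D2:**
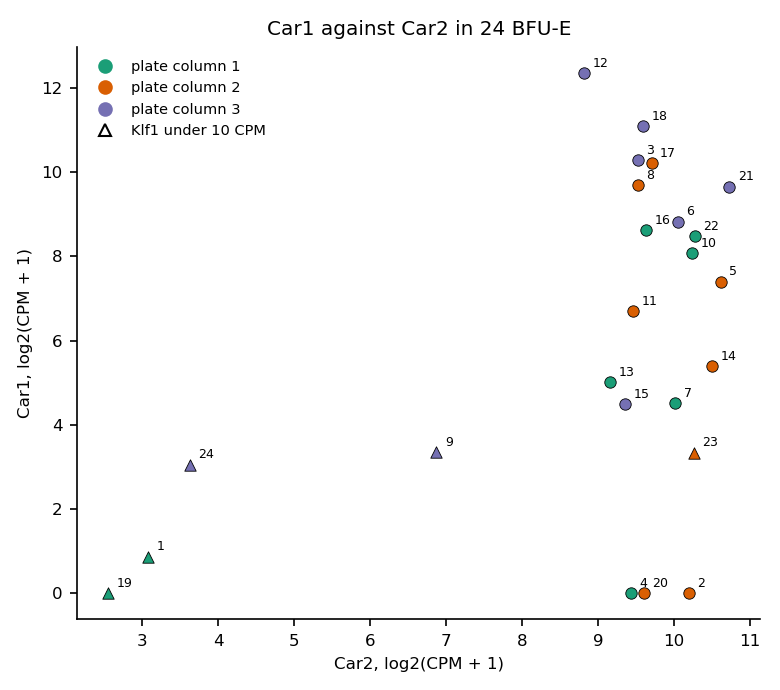
Car1 (y axis) against Car2 (x axis), both as log2(CPM + 1), for 24 numbered BFU-E; colour gives the plate column and triangles mark the 5 cells with Klf1 under 10 CPM. Cells 1, 9, 19 and 24 lie at 116 CPM of Car2 or less, and the other 20 lie between 448 and 1695 CPM of Car2 with Car1 anywhere from 0 to 5252 CPM.

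Car2 divided the cells into 4 low ones and 20 with a narrow range, and the same 4 cells lacked Gata1, the transcription factor that drives the erythroid programme. Car2 was 7.43 CPM in cell 1, 116 in cell 9, 4.86 in cell 19 and 11.4 in cell 24, against 448 to 1695 CPM in the other 20, a 3.78-fold range. Gata1 was 2.48 CPM in cell 1, 2.85 in cell 9 and 0 in cells 19 and 24, against 188 to 886 CPM in the other 20, so the cells did not overlap in either gene. Klf1, an erythroid transcription factor that acts on many red cell genes, was 2.48, 2.85, 0.810 and 8.12 CPM in the 4 cells. Cell 23 parted Klf1 from Gata1, with 3.42 CPM of Klf1 beside 886 CPM of Gata1, and there Car2 was 1229 CPM and Car1 9.12 CPM. Over all 24 cells Pearson r of Car2 on the log2 scale was 0.93 with Gata1 and 0.75 with Klf1, while Spearman rho was 0.28 and 0.27, since the order among the 20 high cells did not follow either gene. Without the 5 cells of Klf1 under 10 CPM, rho of Car2 was -0.37 with Gata1 and -0.17 with Klf1. Within plate columns rho of Car2 with Gata1 was 0.33, -0.33 and 0.64, and column 2 held none of the 4 low cells.

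Car1 was low in the same cells but did not stop there. It was 0.825 CPM in cell 1, 9.25 in cell 9, 0 in cell 19 and 7.31 in cell 24, all at the low end of its range. Cells 2, 4 and 20 also had 0 CPM of Car1, however, with 317, 735 and 600 CPM of Klf1 and 1171, 687 and 775 CPM of Car2. Among the 19 cells with 10 CPM of Klf1 or more, Car1 ran from 0 to 5252 CPM with a median of 270 CPM, and Car2 from 448 to 1695 CPM with a median of 794 CPM. Spearman rho of Car1 was 0.16 with Klf1 and 0.14 with Gata1 over 24 cells. Without the 5 cells low in Klf1 these were -0.37 and -0.11.

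**Figure D3:**
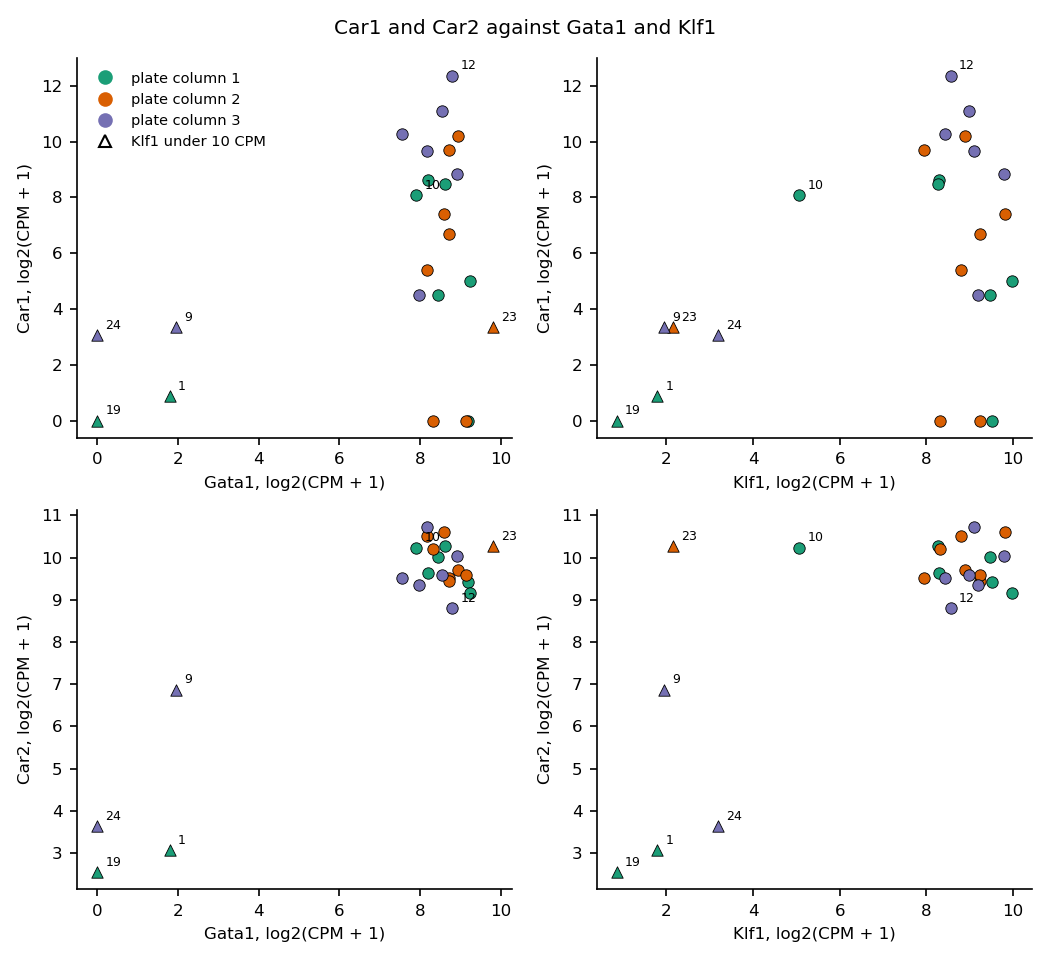
Car1 (upper row) and Car2 (lower row) against Gata1 (left) and Klf1 (right), all as log2(CPM + 1), in 24 BFU-E; colour gives the plate column and triangles mark cells with Klf1 under 10 CPM. Cells 1, 9, 19 and 24 are low in all 4 genes, cell 9 standing above the others in Car2 at 116 CPM. Cell 23 has Gata1 and Car2 with little Klf1 and lies near them in the panel of Car1 against Klf1. Cells with Gata1 at 188 CPM or more span the whole range of Car1.

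Transcripts of other blood lineages were summed in the 4 cells low in Car2 and Gata1. The summed level of 16 myeloid marker genes was 13957 CPM in cell 1, 3822 in cell 9, 5971 in cell 19 and 4304 in cell 24. In the other 20 cells it was 24.8 to 4749 CPM, so cells 9 and 24 fell within that range. Its top was cell 23, which also had Klf1 under 10 CPM, and the next was cell 3 at 2082 CPM, below all 4 cells. Of the 16, 12 were at 10 CPM or more in cell 1, 8 in cell 9, 4 in cell 19 and 6 in cell 24, and Elane, Cebpe, Ms4a3 and Ly86 had 0 counts in all 24 cells. Cell 19 had the highest lymphoid sum, 784 CPM over 12 markers, with 5 at 10 CPM or more. Cell 24 had the highest mast cell and basophil sum, 887 CPM over 10 markers, but 1 marker, Cpa3, carried it, and cells 22 and 23 had 3 markers each at 10 CPM or more. Whether these cells were erythroid progenitors, as labelled, was not tested.

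Other genes divided the cells as Car2 did. Among 5961 other genes detected in at least 12 cells, 18 (0.302%) were lower in each of these 4 cells than in every other cell, a set picked after the values of Car2 and Gata1 were seen. Besides Gata1 they included Mfsd2b, an exporter of sphingosine 1-phosphate in red cells, at 0.825, 2.85, 0 and 2.44 CPM in the 4 cells against 99.9 to 1170 CPM in the other 20. Fech and Glrx5, which serve haem and iron-sulfur cluster synthesis, Smim1, which carries the Vel blood group in humans, and Stard7, which moves phosphatidylcholine to mitochondria, were also among them. Pearson r with Car2 on the log2 scale was 0.91 for Mfsd2b, 0.88 for Stard7 and 0.87 for Smim1, and 0.90 for Apoe, the lipid carrier apolipoprotein E. Mfsd2b, Stard7 and Smim1 were picked for being low in these 4 cells, so their r is not separate evidence of a relation. Without the cells of Klf1 under 10 CPM, Spearman rho with Car2 was 0.093 for Mfsd2b, 0.39 for Stard7, -0.12 for Smim1 and 0.028 for Apoe.

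By Spearman rho, few genes followed Car1 or Car2 closely. Of 5961 genes detected in at least 12 cells, 16 had a rho of 0.6 or more with Car1 (0.268%) and 7 had -0.6 or less (0.117%). With Car2 the counts were 16 (0.268%) and 19 (0.319%). Over all pairs of these genes, 0.21% had a rho of 0.6 or more and 0.167% had -0.6 or less, so the counts for Car1, and that of genes rising with Car2, are near that of any pair and are no result about them. The median gene had 10 partners at 0.6 or more and 8 at -0.6 or less, Klf1 had 80 at 0.6 or more, and 91.6% of genes had fewer than Car2 at -0.6 or less. Of those 19 genes, however, 4 stayed at -0.6 or less without the 5 cells with Klf1 under 10 CPM. No gene reached 0.6 with both Car1 and Car2 (0% of 5960).

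The genes most like Car1 were of several kinds. Slc14a1, the urea transporter of red cells, had the highest rho, 0.71 over 24 cells, and 0.78, 0.60 and 0.93 within plate columns. Its level was 469, 381, 219 and 377 CPM in cells 12, 18, 3 and 17, the cells of highest Car1, against 85.7, 78.3, 62.4 and 109 CPM in cells 2, 4, 19 and 20, which had no Car1. Slc14a1 was therefore present where Car1 was not, and averaged 171 ± 142 CPM. It was picked for its rho with Car1, so these levels are not separate evidence of a relation. In cell 6, with 454 CPM of Car1, it was 37.1 CPM. In cells 13 and 15, with 31.5 and 21.4 CPM of Car1, it was 206 and 209 CPM. Next were Dpy19l1, a C-mannosyltransferase (0.68), Acadl, a mitochondrial enzyme of fatty acid oxidation (0.67), Ap1g2, a subunit of a clathrin adaptor (0.65), Ppia, cyclophilin A (0.65, but 0.43 under median-of-ratios scaling), Ngly1, an enzyme that strips glycans from misfolded proteins (0.64), Mki67, the proliferation antigen Ki-67 (0.64), Kdelr1, which returns proteins to the endoplasmic reticulum (0.63), Itga2b (0.63) and Camta1, a calmodulin-binding transcription activator (0.63). Without the 5 cells low in Klf1, rho with Car1 was 0.61 for Slc14a1, 0.61 for Mki67 and 0.60 for Itga2b, and 0.42 for Acadl.

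Itga2b encodes CD41, an antigen used in the depletion, and is an integrin chain of platelets and their precursors. It was detected in 16 cells at 117 ± 148 CPM. Itga2b was 542, 237, 457 and 87.4 CPM in cells 12, 18, 3 and 17, which had the most Car1, against 130, 155, 0 and 0 CPM in cells 2, 4, 19 and 20, which had none. Cell 17 was thus below cells 2 and 4. Itga2b too was picked for its rho with Car1, so these levels are not separate evidence of a relation. Within plate columns its rho with Car1 was 0.79, 0.38 and 0.86. Leaving out cell 3, 8, 12 or 18 brought it under 0.6, to 0.58 at the lowest. Of the other megakaryocyte markers detected widely enough, F2r, the thrombin receptor, had a rho of 0.57 with Car1 and Mef2c, a transcription factor, had -0.19. Gata2, a transcription factor of early blood progenitors, had 0.57 with Car1, with -0.18 in plate column 2 and 0.88 and 0.81 in columns 1 and 3. The summed level of 16 megakaryocyte markers was highest in cell 12, at 2443 CPM against 2073 CPM in the next cell and a median of 454 CPM, but Pf4, Ppbp and Gp6 had 0 counts in all cells, and the rho of the sum with Car1 was 0.38. The part of such transcripts in the Car1 values was not tested.

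The genes that ran most against Car1 were Uvrag, an autophagy gene (-0.72), Rnf219, a ubiquitin ligase gene (-0.66), Akap8l, an anchoring protein of the nucleus (-0.63), Psd4, an exchange factor for ARF6 (-0.63), and Psme1, a subunit of the proteasome activator PA28 (-0.61). Uvrag was 78.3, 99.02, 126 and 76.5 CPM in cells 2, 4, 19 and 20, which had no Car1, and 0, 0, 0 and 0.652 CPM in cells 12, 18, 3 and 17, which had the most. It was picked for its rho with Car1, so these levels are not separate evidence of a relation. Uvrag was detected in 12 cells only. It was also 0 CPM in cells 14 and 23, with 40.8 and 9.12 CPM of Car1, and 68.7 CPM in cell 16, with 393 CPM of Car1. Within plate columns its rho was -0.71, -0.36 and -0.86.

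Different genes led the list for Car2. A clone-named gene, AU022252, had the highest rho, 0.76, and the highest of the annotated genes that the naming rule allows were Gid8, a subunit of a multi-protein ubiquitin ligase (0.74), Slc41a3, a magnesium transporter (0.73), Srp72 of the signal recognition particle (0.68), Slc35c1, a GDP-fucose transporter (0.67), Stard7 (0.67), Derl1, which takes part in disposal of misfolded proteins (0.67), Fam241a (0.65), Rbm12, an RNA-binding protein (0.64), Khk, ketohexokinase of fructose metabolism (0.64), and Prrc1 (0.62). For Gid8 the rho was 0.71, 0.55 and 0.78 within plate columns, and 0.63 without the 5 cells low in Klf1. Stard7 had 0.39 without those cells and Khk 0.36, so their place depended on them. Prrc1 had 0.47 without them, Slc35c1 0.55, Srp72 0.56, Slc41a3 0.58 and Derl1 0.58, all under 0.6, while Fam241a had 0.61 and Rbm12 0.64. Within plate column 2 the genes from Gid8 to Prrc1 ran from 0.036 for Fam241a to 0.76 for Derl1, with Rbm12 at 0.19. The lowest were Psmc4, an ATPase of the proteasome (-0.70), Gigyf2, a translational repressor (-0.68), Dnajc9, a co-chaperone of histones (-0.66), Dync1li2, a dynein chain (-0.65), and Mrm3, a methyltransferase of mitochondrial ribosomal RNA (-0.65).

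The genes that came closest to following both were Mfsd2b, with 0.55 for Car1 and 0.51 for Car2, the long non-coding RNA Gas5, with 0.53 and 0.51, and Ndufs3, a subunit of respiratory complex I, with 0.54 and 0.50. After them came Ccnb2, Mrpl48, Apoe, Taf8, Uap1, Stard7 and Copg1, whose smaller rho was between 0.44 and 0.48. Apoe had 0.62 with Car1 and 0.47 with Car2. Without the 5 cells low in Klf1 its rho was 0.68 with Car1 but 0.028 with Car2. That of Mfsd2b was 0.43 with Car1 and 0.093 with Car2.

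Erythroid regulators leaned towards both genes as a list, without any member standing out. For 17 of 20 listed regulators that were detected widely enough, the median rho was 0.26 with Car1 and 0.27 with Car2, against 0.020 and 0.031 over all genes tested, and 13 and 15 of the 17 were positive, against 3196 and 3283 of 5961 genes. Lmo2, a bridging factor of the Gata1 complex, was the highest with Car1 at 0.56, and Lyl1 the lowest at -0.24. Tal1, its partner in that complex, was the highest with Car2 at 0.50, and Cbfa2t3, a corepressor, the lowest at -0.14. None reached 0.6. Without the 5 cells low in Klf1 the list medians were 0.016 with Car1 and 0.070 with Car2.

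Lists of later erythroid genes and of haem genes had higher medians with Car2 than with Car1, a difference with no test. For 14 of 32 maturation genes the median rho was 0.26 with Car2 and 0.091 with Car1, and for 18 of 23 haem and iron genes 0.15 and 0.052. Gpx1 and Prdx2, antioxidant enzymes of red cells, had 0.33 and 0.31 with Car2 and -0.15 and 0.14 with Car1. Ppox, an enzyme of haem synthesis, had -0.39 with Car2 and -0.29 with Car1. In the 19 cells left without those low in Klf1 the maturation median was 0.018 with Car2 and -0.24 with Car1. No member of either list passed 0.6 in either direction.

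Early progenitor genes did not follow either gene as a list. The median over 12 of 22 was -0.025 with Car1 and -0.12 with Car2. Kit, the stem cell factor receptor and the CD117 antigen of the sort, was detected in 24 cells at 323 ± 182 CPM and had -0.20 with Car1 and 0.35 with Car2. Gata2 was the highest with Car1, and Spi1, a myeloid transcription factor, the lowest at -0.43. Myb, the member of highest mean CPM at 385 ± 215, had -0.015 with Car1 and 0.16 with Car2. Per length the highest mean was that of Cd48 at 343 TPM, against 112 TPM for Myb.

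Cell cycle lists had medians of opposite sign with Car1 and of like size with Car2, differences with no test. For 19 of 20 genes of the G2 and M phases the median rho with Car1 was 0.24, against 0.020 over all genes, and 18 were positive. Mki67 alone reached 0.6 there, and Bub1b, a spindle checkpoint kinase, was the one negative member at -0.26. For the 20 genes of S phase the median with Car1 was -0.11 and 9 were positive, Mcm6, a subunit of the replicative helicase, being the lowest at -0.40 and Fen1, a flap endonuclease, the highest at 0.39. The S phase median was -0.0027 without cell 18. With Car2 the medians were 0.082 for G2 and M and 0.093 for S phase.

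**Figure D4:**
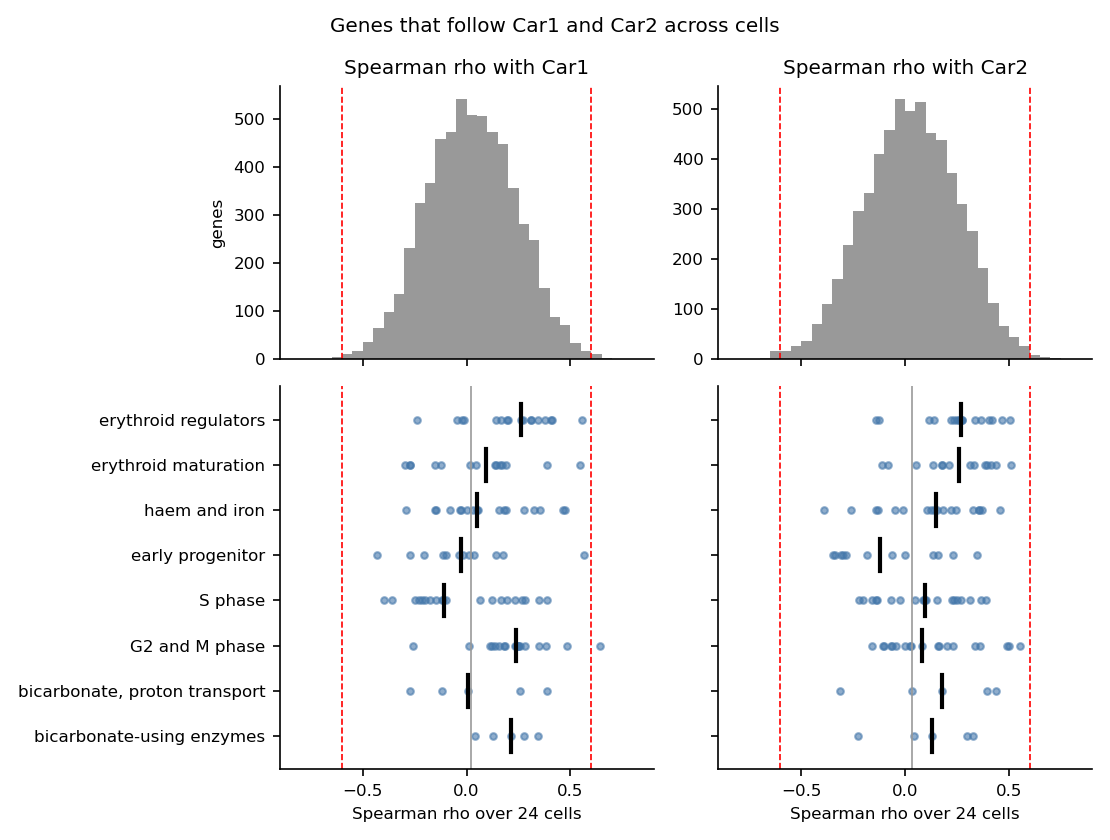
Upper row, histogram of Spearman rho over 24 cells between every gene tested (y axis, number of genes) and Car1 (left) or Car2 (right). Lower row, rho of each tested gene (point) of 8 lists with its list median (black bar), the grey line being the median of all genes and the red dashed lines 0.6 and -0.6; the regulator medians are 0.26 and 0.27, and Mki67 is the point past 0.6 with Car1.

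The transporters that work with carbonic anhydrases in mature red cells were only partly in place. Slc4a1, the anion exchanger of the red cell membrane that swaps bicarbonate for chloride, had 2 counts over all 24 cells and was detected in none. Aqp1, a water channel that also passes carbon dioxide, was detected in 15 cells at 75.6 ± 82.7 CPM, Rhag of the Rh complex in 12 at 62.4 ± 78.1 CPM and Rhd in 9 at 41.8 ± 61.7 CPM. The lactate and proton carriers were more common: Slc16a1 in 23 cells at 276 ± 182 CPM, Slc16a3 in 20 at 117 ± 118 CPM, and their chaperone Bsg in 24 at 415 ± 90.6 CPM. Other bicarbonate and proton exchangers were sparse, with Slc4a2 in 6 cells and Slc4a7 in 4, while Slc4a3, Slc4a4 and Slc4a5 had 0 counts.

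Among the 5 transport genes detected widely enough, the median rho was 0.0065 with Car1 and 0.18 with Car2, and none reached 0.6. Slc16a3 and Rhag had 0.44 and 0.40 with Car2, Aqp1 had 0.38 with Car1, and Slc16a1 had -0.31 with Car2. Enzymes that use bicarbonate were present at low levels. By CPM the highest was Cad, which starts pyrimidine synthesis, at 65.8 ± 70.7 CPM in 16 cells. Pc, another gene of this list, matched no row by symbol and was not measured. Pcca of propionyl-CoA carboxylase averaged 40.1 ± 57.5 CPM, and Mccc1 and Mccc2 of methylcrotonoyl-CoA carboxylase 40.0 ± 50.5 and 29.9 ± 38.6 CPM. Acaca, acetyl-CoA carboxylase, averaged 17.3 ± 23.9 CPM. Per length the highest mean was that of Mccc2 at 27.9 TPM, against 21.04 TPM for Cad. Over these 5 enzyme genes the median rho was 0.21 with Car1 and 0.13 with Car2. The largest were 0.34 for Pcca with Car1 and 0.33 for Mccc1 with Car2, and none of the 5 reached 0.6.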

How the data were processed

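RNA of 24 single cells was measured in 1 table. The authors' deposited values are raw read counts per gene, used as deposited. STAR 2.4, featureCounts and GRCm38 are named per the submitters' processing notes, and the libraries were not stranded per the labels' protocols; for the annotation release, counting options, read length and any cell filter the sources used here give nothing. Reads of overlapping genes cannot be told apart without strand. GENCODE M21, also on GRCm38, gave symbols, coordinates, exon lengths and coding sequences; 49326 of 49585 identifiers matched, and the 259 others held 0.0295% of counts.

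CPM used the total over all gene rows, and TPM used summed exon length. Genes with at least 5 counts in at least 12 cells were tested, 5962 in all, by Spearman rho of CPM; Pearson r used log2(CPM + 1). Genes were named by a fixed rule: the 10 highest and 5 lowest by rho with Car1 or with Car2, the 10 with the largest smaller rho, list members of highest level or extreme rho, and every gene detected near the cluster or in the small lists. Among genes ranked by rho, pseudogenes, predicted or clone-named models and rows lacking a symbol were passed by. Other genes named were chosen after their values were seen. Some genes that the rule names are left out here. The members and lists were chosen with earlier results of these data known.

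Alternatives were TMM (edgeR 4.0.16, R 4.3.3) and median-of-ratios scaling, totals without ribosomal RNA and mitochondrial genes, thinning, other detection limits and rho thresholds, Pearson r, partial rho given depth, the longest transcript, plate columns, and leaving out cells. Python 3.11.15, numpy 2.4.6, pandas 2.3.3 and scipy 1.17.1 were used, and the statistics were tested on simulated cells.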

Additional observations from a re-analysis of the deposited data

How the results depend on the processing

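No test was made, so a rho is called moved when it shifts by more than 0.1, a count when it changes by more than 1.5 times and a mean when it shifts by more than its SD. For Car1, Car3 and Car13 the SD over cells exceeds the mean, so no fall in these means could count as moved. No paired analysis was possible because the cells form 1 group and their numbers only name cells. Scaling by TMM or median of ratios, totals without ribosomal RNA and mitochondrial genes, thinning to the smallest total, the longest transcript and partial rho given depth moved none of the means, counts, list medians or the rho of Car1 with Car2 that each was run on. Taking 1 count as detection put Car3 in 2 cells. The rho of Car1 with Car2 became 0.46 as Pearson r, 0.68, -0.12 and 0.45 within plate columns, -0.025 without the cells of Klf1 under 10 CPM and, chosen after seeing the data, -0.071 without the 4 cells of Car2 under 200 CPM. Leaving out each cell in turn gave 0.19 to 0.37, the highest without cell 12.

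Numbers of genes past 0.6 and past -0.6 depended on the measure. With Car1 they were 10 and 4 by Pearson r, 9 and 3 among genes in at least 18 cells, 27 and 41 without the cells low in Klf1, 68 and 36 at a threshold of 0.5, and 1 and 1 at 0.7. Among genes in at least 6 cells 12 were past -0.6. With Car2 they were 154 and 10 by Pearson r, 9 and 11 among genes in at least 18 cells, 86 and 61 at 0.5, and 3 and 0 at 0.7. Of the 16 genes past 0.6 with Car1, 10 remained without the cells low in Klf1, and of the 16 with Car2, 5 remained. Correlations over 19 cells spread more widely by construction. Leaving out each cell gave 11 to 26 and 6 to 13 genes with Car1, with 25 without cell 2 and 26 without cell 20, and 11, 12, 13 and 12 past -0.6 without cells 5, 8, 21 and 23. With Car2 it gave 15 to 27 and 14 to 28, with 27 without cell 15 and 25 without cell 23.

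List medians with Car1 without the cells low in Klf1 were 0.11 for bicarbonate-using enzymes, 0.016 for erythroid regulators, -0.24 for maturation, -0.12 for haem and iron and 0.13 for early progenitor genes. With Car2 they were -0.047 for transport, -0.014 for bicarbonate-using enzymes, 0.070, 0.018 and -0.054 for regulators, maturation and haem, 0.0030 for early progenitor genes and -0.095 for G2 and M. As Pearson r, the medians were 0.15 for transport and 0.20 for haem with Car1, and 0.43 for transport, 0.44 for regulators, 0.44 for maturation, 0.37 for haem and 0.33 for G2 and M with Car2. Leaving out single cells moved transport with Car1 to between -0.10 and 0.13 (cells 2, 19 and 20), S phase with Car1 to between -0.13 and -0.0027 (cell 18), and G2 and M with Car2 to between -0.043 and 0.18 (cell 19). The cause of these shifts was not tested.

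Of the 30 genes named as highest or lowest by rho with Car1 or Car2, none changed sign under these alternatives, but within plate columns Kdelr1 with Car1 was -0.024 in column 3. Leaving out cell 12 or 18 brought Mki67 just under 0.6 with Car1, cell 1, 9, 19 or 24 did so for Khk with Car2, cell 4, 19 or 20 did so for Kdelr1, cell 4 or 20 for Akap8l, cell 19 for Mrm3 and cell 1, 9, 12, 19 or 24 for Prrc1. Camta1, Psd4 and Psme1 were brought under 0.6 in size by 7, 6 and 11 single cells, cells 12, 18 and 19 among them each time. Ppia with Car1 was 0.43 under median-of-ratios scaling and just under 0.6 with TMM and after thinning; Mki67 after thinning, Fam241a with TMM and Psme1 under both scalings were also just under 0.6 in size. The mean of Car1 was 354 to 583 CPM leaving out each cell, that of Car2 773 to 847, of Car3 0.0269 to 2.94 and of Car13 15.04 to 23.2, the last without cell 10 being chosen after seeing the data. Depth limits what a count of 0 can show for Car4 and the other undetected genes to 3 counts.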
